A study of Mus musculus with 2 samples.

Results

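The 42 cell division genes were followed in leukocytes of the mouse heart, and all 42 were found by their symbols among the 27809 genes of the count matrix. They were 22 mitotic members, which are read late in the cell cycle and in mitosis, and 20 S-phase members, which serve the copying of DNA, and both sets were described apart. CD45+ cells, which are leukocytes, were selected from hearts of male mice aged 8 weeks on a C57BL/6 background. Hearts were taken 1 week after sham surgery or TAC (transverse aortic constriction, a suture around the aorta that loads the heart with pressure). The cells of the 5 groups were told apart by hashtag antibodies and shared 1 library, made by TAS-Seq (a way to amplify the RNA of single cells caught in microwells, here with BD Rhapsody beads). The groups were WT sham (a wild-type heart without constriction), CD3e-/- sham (the same surgery in mice that lack the CD3e chain of the T cell receptor complex and so have no mature T cells), WT TAC, CD3e-/- TAC, and TAC in wild-type mice that received an antibody to CD8, written CD8-depleted TAC after its label. Values of 5 groups are given in this order. The paper states that C57BL/6N mice were purchased and names no substrain for the CD3e-/- mice. The deletion is carried in every cell of the mouse and from birth, while the antibody acts in the adult, and the number of hearts behind each hashtag is not given in the sources used here. Each group was 1 sample, so no test was made and no p-value is given, and every interval covers counting error only.

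A dividing cell copies its DNA in S phase, for which the helicase of the MCM proteins is loaded and nucleotides are made, and then separates the copies in mitosis, for which cyclin B and the kinase CDK1, the spindle motors and the checkpoint proteins are made. The messages of the mitotic proteins are kept low until late in the cycle by complexes that bind their promoters, and those of S-phase proteins are released earlier by factors of the E2F family. Macrophages of the adult heart are known to be kept up in part by division in place and in part by monocytes that enter from the blood and mature, and monocytes of the blood themselves have mostly left the cell cycle.

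The promoters of 6 members are shown since the levels of the 2 sets below differed in the cells they came from, and their starts hold different short motifs. Promoter sequences of RefSeq on GRCm38.p6, of 300 bases from 250 before to 50 after the start of the gene, were found for 35 of the 42 members. Motifs were searched on both strands, namely the CHR element TTTGAA, the CCAAT box CCAAT and the E2F site TTTGGCGC or TTTCCCGC, and none of these letters contains another motif. Capitals mark the matches in either direction. The mitotic members shown are *Mki67* (chr7:135716330-135716629, minus strand), *Cdk1* (chr10:69352863-69353162, minus strand), *Plk1* (chr7:122159185-122159484, plus strand) and *Cdc20* (chr4:118437294-118437593, minus strand), and the S-phase members are *Pcna* (chr2:132253131-132253430, minus strand) and *Mcm5* (chr8:75109259-75109558, plus strand).
Mki67: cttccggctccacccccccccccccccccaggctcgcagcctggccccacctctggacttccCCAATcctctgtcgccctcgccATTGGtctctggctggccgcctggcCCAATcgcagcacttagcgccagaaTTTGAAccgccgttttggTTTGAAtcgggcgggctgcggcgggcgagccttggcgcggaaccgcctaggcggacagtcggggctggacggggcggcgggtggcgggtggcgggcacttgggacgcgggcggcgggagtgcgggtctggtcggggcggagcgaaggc
Cdk1: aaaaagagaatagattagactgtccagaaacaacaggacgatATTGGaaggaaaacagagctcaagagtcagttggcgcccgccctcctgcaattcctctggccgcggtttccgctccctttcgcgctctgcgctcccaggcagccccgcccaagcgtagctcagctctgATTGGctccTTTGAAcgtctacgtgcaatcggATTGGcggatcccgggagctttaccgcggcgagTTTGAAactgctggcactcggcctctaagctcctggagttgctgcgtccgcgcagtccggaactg
Plk1: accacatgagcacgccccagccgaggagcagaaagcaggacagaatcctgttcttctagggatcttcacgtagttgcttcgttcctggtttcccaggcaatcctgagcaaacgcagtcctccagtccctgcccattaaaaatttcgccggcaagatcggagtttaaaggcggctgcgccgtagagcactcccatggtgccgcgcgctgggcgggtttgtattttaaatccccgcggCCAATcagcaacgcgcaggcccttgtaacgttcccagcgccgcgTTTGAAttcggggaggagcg
Cdc20: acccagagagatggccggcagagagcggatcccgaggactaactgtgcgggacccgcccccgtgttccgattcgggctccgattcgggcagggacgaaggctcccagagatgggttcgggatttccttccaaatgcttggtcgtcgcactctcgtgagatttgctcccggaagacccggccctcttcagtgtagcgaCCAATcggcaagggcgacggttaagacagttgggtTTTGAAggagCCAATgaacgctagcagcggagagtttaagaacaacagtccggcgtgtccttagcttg
Pcna: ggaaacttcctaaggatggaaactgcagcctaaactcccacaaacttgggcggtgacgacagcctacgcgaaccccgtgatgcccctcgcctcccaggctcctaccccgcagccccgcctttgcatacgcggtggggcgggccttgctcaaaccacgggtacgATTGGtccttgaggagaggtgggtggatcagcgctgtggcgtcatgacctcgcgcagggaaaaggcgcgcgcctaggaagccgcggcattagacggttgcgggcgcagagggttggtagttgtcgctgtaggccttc
Mcm5: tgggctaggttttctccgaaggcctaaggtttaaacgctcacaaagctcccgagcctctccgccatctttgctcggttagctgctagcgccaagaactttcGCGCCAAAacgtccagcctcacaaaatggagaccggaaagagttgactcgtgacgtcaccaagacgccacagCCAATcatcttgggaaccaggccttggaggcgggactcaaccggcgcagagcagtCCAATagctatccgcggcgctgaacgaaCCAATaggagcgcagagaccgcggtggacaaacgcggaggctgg

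The CHR element was found in 13 of the 18 mitotic members with a sequence (72.2%), in 1 of 17 S-phase members (5.88%, *Mcm2*) and in 17.9% of all 32851 promoters of the same length. The CCAAT box was found in 16 of 18 mitotic members (88.9%), 10 of 17 S-phase members (58.8%) and 37.4% of all promoters. The E2F site was found in none of the 18 mitotic members, in 6 of 17 S-phase members (35.3%), namely *Mcm3*, *Mcm5*, *Mcm6*, *Mcm7*, *Cdt1* and *Cdc6*, and in 1.56% of all promoters. Both the CHR element and the CCAAT box were found in 13 of 18 mitotic members (72.2%), which were all those with a CHR element. Both were found in 1 of 17 S-phase members (5.88%) and in 6.95% of all promoters. A match of letters is a description of the sequence and no evidence that a factor was bound, and a window without a match says nothing of sites elsewhere. Variants of the letters were not searched, such as TTTCGCGC in the *Cdk1* sequence shown, so the count of E2F sites holds for the named letters only.

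After filters 1000, 835, 1615, 919 and 894 cells were kept, with totals of 91899777 to 208758777 reads per group. The median cell had 75442, 78372, 98869, 117788 and 98471 reads, so cells of the TAC groups were read more deeply. For shares of cells, each cell was therefore thinned to 34832 reads, which 4736 cells reached. *Cd8b1*, the beta chain of the CD8 receptor of T cells, had no read in either CD3e-/- group and was read in 0.800%, 0.743% and 0.671% of the cells of WT sham, WT TAC and CD8-depleted TAC, and *Cd3e* was still read at 3.73 and 5.64 CPM in the CD3e-/- groups beside 17.8, 10.8 and 13.6 CPM in the others. The share of cells with a read of *Cd3e* went otherwise, with 6.9%, 5.03%, 6.38%, 9.03% and 5.70%. Whether these *Cd3e* reads lie outside the deleted part was not tested. The CD8-depleted TAC group was taken from its label, as the share of its cells with a read of *Cd8b1* or *Cd8a* lay within the intervals of the other groups without the deletion.

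Mitotic members were read together in few cells and not at all in most. Of the 4736 thinned cells, 3103 had no read of any of the 21 mitotic members other than *Stmn1*, 1052 had a read of 1 of them, and only 33 had exactly 4. A second set of cells held many of them, as 245 cells had 10 or more and 28 had all 21. A cell with 5 or more was called a cell with mitotic members, which 308 cells were (6.5%, Clopper-Pearson interval 5.82 to 7.24%), and these had a median of 16. Just outside and just inside this limit were 33 cells with 4 and 22 with 5. S-phase members gave no such second set, as 526 cells had none, 1248 had 2 and 430 had 4. Low counts had been set to 0 before deposit for 16 of 22 mitotic but only 2 of 20 S-phase members. The part of this in the contrast between the sets was not tested. The count then fell to 37 cells at 8 and lay at 27 to 34 cells from 9 to 13. A cell with 8 or more of the 20 was called a cell with S-phase members, which 273 cells were (5.76%, 5.12 to 6.47%). Just outside this limit were 70 cells with 7 and just inside 37 with 8. Both limits thus lie on a falling slope. Mitotic counts fell from 38 cells with 3 members to 6 cells with 8 before they rose again.

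**Figure D1:**
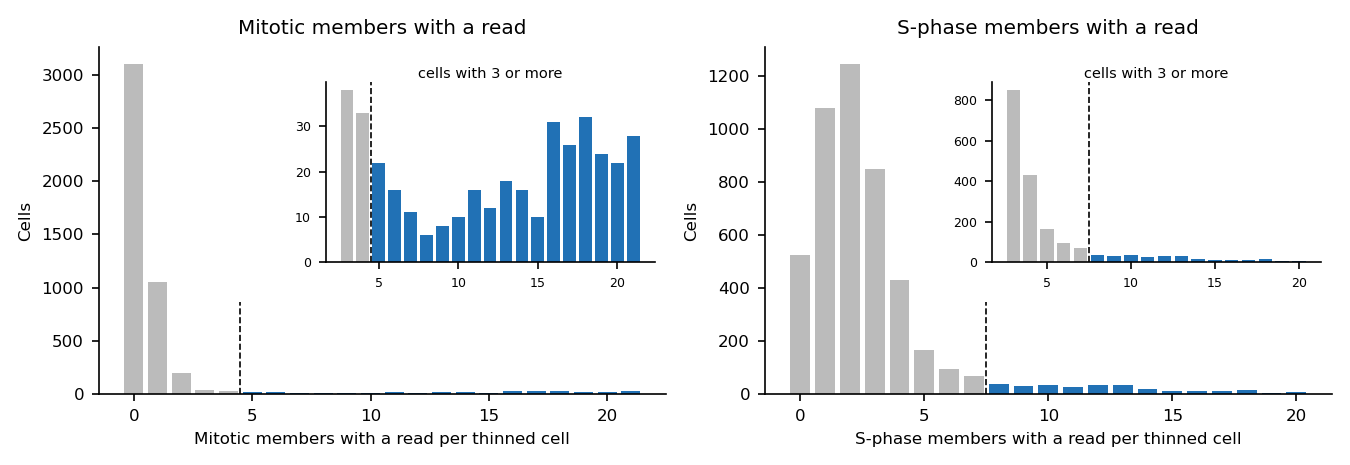
Number of thinned cells (y axis) by the number of mitotic members other than Stmn1 (left) or S-phase members (right) with a read per cell (x axis), with cells of 3 or more enlarged in the insets. Blue bars are cells past the limit (dashed line) of 5 mitotic or 8 S-phase members, and mitotic members show a second rise at 10 to 21 members (245 cells), where S-phase members run out in a flat tail.

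The members differed in how closely their reads were bound to these cells. *Mki67*, the nuclear protein Ki-67 that coats the chromosomes of dividing cells, was read in 98.1% of the 308 cells with mitotic members and in 4.72% of the others, and 93.1% of its reads came from the former. Over the mitotic members the median share of reads from these cells was 93.1%, the highest being *Ccnb1* (cyclin B1, 98.9%) and *Ccna2* (cyclin A2, 98.7%), and the lowest *Aurkb* (a kinase of chromosome alignment, 75.4%) and *Aurka* (a kinase of the spindle poles, 79.6%). Over the S-phase members the median was 42.7%, with *Rrm2*, the regulated subunit of ribonucleotide reductase, at 92.9% and *E2f1*, a transcription factor of cycle entry, at 14.9%. Since the mitotic call was made with the mitotic members, only the S-phase values and those of *Stmn1*, which was read in 92.5% of these cells and had 81.8% of its reads in them, are independent of it. *Pcna*, the clamp that holds the DNA polymerase, was read in 49.6% of all thinned cells and in 38.7% of the cells of the B cell gate, which were read to a median of 47214 reads against 97040 in monocytes and macrophages, so reads of *Pcna* were not confined to cells that met a call. The error correction of the counts left a smallest value above 1 read for 16 of 22 mitotic members (5 to 15 reads) but for only 2 of 20 S-phase members, so low counts of most mitotic members were set to 0 before deposit. *Aurkb*, *Aurka* and *E2f1* had a smallest value of 1 read, and *Ccnb1*, *Ccna2* and *Rrm2* of 6 or 7. *Plk1* and *Bub1* also had 1, with 93.1% and 94.1% of reads in the called cells, and *Pcna* had 7, with 25.4%. The part of this floor in the shares of reads and in the shares of cells was not tested.

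Cells with mitotic members made up 41 of 872 cells in WT sham (4.70%, 3.39 to 6.32%), 34 of 722 in CD3e-/- sham (4.71%, 3.28 to 6.52%), 109 of 1481 in WT TAC (7.36%, 6.08 to 8.81%), 60 of 830 in CD3e-/- TAC (7.23%, 5.56 to 9.21%) and 64 of 831 in CD8-depleted TAC (7.70%, 5.98 to 9.73%). All TAC groups lay above both sham groups, by 2.66 percentage points in WT and 2.52 in CD3e-/- mice, while the intervals of sham and TAC overlapped in both. The difference between TAC and sham was positive in every alternative run, from 1.72 to 2.89 points in WT and 1.41 to 3.27 in CD3e-/- mice. Sham cells were read less deeply before the thinning, and the part of the floor on low counts in these differences was not tested. CD3e-/- TAC and CD8-depleted TAC, which share WT TAC as their control, differed from it by -0.131 and 0.342 points, within the counting error. Cells with S-phase members made up 5.16%, 5.96%, 5.67%, 5.30% and 6.86%, and all 5 intervals overlapped. The difference of S-phase shares between CD3e-/- TAC and CD3e-/- sham was -0.654 points and turned to 1.35 points without thinning, so no order was read from them.

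Both calls were met by 148 cells, which were 48.1% of the cells with mitotic members and 54.2% of those with S-phase members. By group, S-phase members were found in 53.7%, 64.7%, 40.4%, 50% and 46.9% of the cells with mitotic members, with intervals that all overlapped. Cells with both had a median of 207739.5 reads and 6135.5 genes, cells with mitotic members alone 136991.5 reads and 5095 genes, cells with S-phase members alone 181357 reads and 5624 genes, and cells with neither 97748 reads and 4012 genes. More reads in these cells moved with the call, and its part in the calls beyond the thinning was not tested. Of the doublets the authors marked by 2 hashtags, 1 of 36 met the mitotic call (2.78%, 0.0703 to 14.5%).

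**Figure D2:**
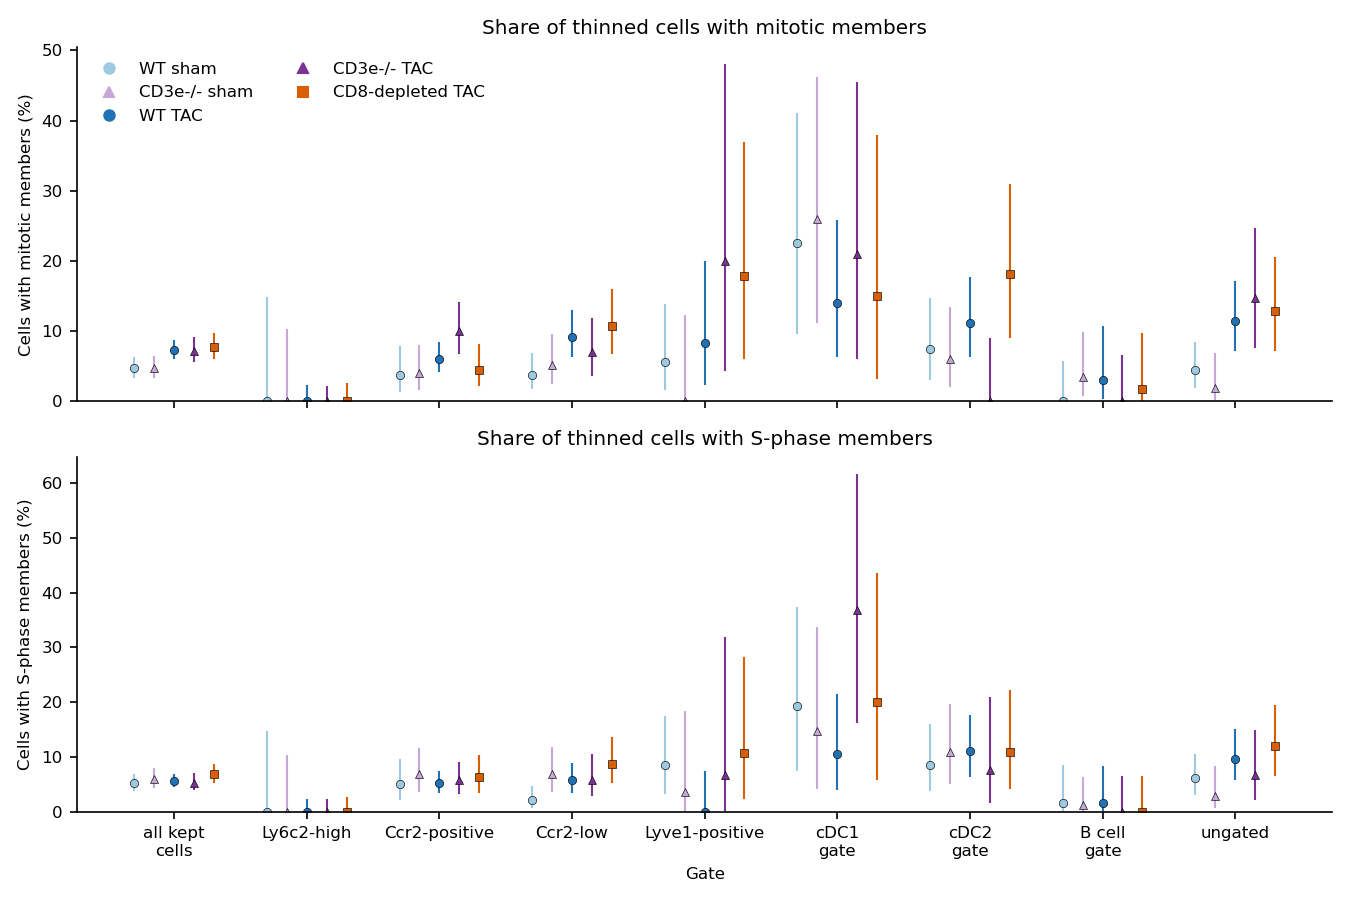
Percent of thinned cells with mitotic members (top) and with S-phase members (bottom) by gate (x axis) and group (symbols), with Clopper-Pearson intervals of 95% for counting error. Mitotic shares of all kept cells lie at 4.70 and 4.71% in the sham groups and between 7.23 and 7.70% in the TAC groups, and the Ly6c2-high gate lies at 0 in every group.

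Mitotic members were next given as levels, namely the summed reads of a group scaled to the total of the same cells (CPM, counts per 1000000 reads). Their sum was 744, 544, 866, 787 and 974 CPM, so the lowest value was that of CD3e-/- sham and the highest that of CD8-depleted TAC. The reads of few cells set these sums, as 15, 11, 29, 14 and 19 cells held 50% of the mitotic reads of their group, and the cell with the most held 6.15%, 6.95%, 4.38%, 4.91% and 4.62%. Poisson intervals of the members, whose half-width was 3.82% of the level at the median and 16.1% at most, therefore understate the error of a level. Among cells with mitotic members the median cell held 8318, 5530, 8380, 7999 and 8266 CPM of mitotic members, so the value of CD3e-/- sham was lower also per called cell. By the gates given below, the 41 called cells of WT sham held 4 Lyve1-positive cells and 0 of the B cell gate. The 34 of CD3e-/- sham held 0 and 3, and the part of this make-up in the medians was not tested.

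*Mki67* was read at 129, 92.1, 163, 147 and 182 CPM. *Top2a*, the topoisomerase that untangles the copied DNA, was read at 91.7, 55.9, 88.7, 77.4 and 110.5 CPM. Both were lowest in CD3e-/- sham and highest in CD8-depleted TAC. *Cdk1*, the kinase that drives entry into mitosis, was read at 18.9, 14.1, 22.8, 19.2 and 24.3 CPM. Its partner *Ccnb1* was read at 10.4, 5.85, 16.7, 14.5 and 17.6 CPM. *Ccna2*, which partners CDK2 and CDK1 from S phase on, was read at 26.4, 18.2, 30.6, 27.1 and 34.7 CPM. The order of the groups was the same for the kinase and both cyclins, with CD3e-/- sham lowest, then WT sham, CD3e-/- TAC, WT TAC and CD8-depleted TAC. Of the reads of *Cdk1*, *Ccnb1* and *Ccna2*, 92.0%, 98.9% and 98.7% came from the same 308 called cells, so their orders are not independent. *Birc5* (survivin, a part of the chromosomal passenger complex) was read at 28.5, 27.5, 40.2, 36.8 and 47.2 CPM. *Cdc20*, which activates the ligase that ends mitosis, was read at 20.1, 14.1, 21, 19.2 and 20.3 CPM. *Plk1*, the polo-like kinase of spindle and centrosome, was read at 9.45, 3.21, 11.8, 12.7 and 8.15 CPM. *Cdc20* was alike in 4 groups and lower in CD3e-/- sham, and *Plk1* was lowest in CD3e-/- sham and highest in CD3e-/- TAC. *Stmn1* (stathmin, which takes microtubules apart and is also read outside division) was read at 110.5, 89.7, 107, 85.6 and 118 CPM, with CD3e-/- TAC lowest and CD8-depleted TAC highest.

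The other mitotic members followed the same lines. Of the spindle and chromosome genes, *Cenpe* (a kinetochore motor) was read at 32.3, 25.1, 45.4, 44.8 and 44.9 CPM. *Tpx2* (a spindle assembly factor) was read at 29.8, 23.5, 39.8, 46.2 and 45.9 CPM and *Kif11* (the motor that parts the spindle poles) at 21.6, 11.7, 22.7, 20.9 and 24.5 CPM. CD3e-/- sham had the lowest value for each, and a TAC group the highest. *Hmmr*, *Nusap1* and *Prc1*, which bind spindle microtubules, *Cenpf* of the kinetochore, *Bub1* and *Bub1b* of the spindle checkpoint, *Aurka* and *Aurkb*, and *Ube2c*, the ubiquitin enzyme of the ligase that *Cdc20* activates, also had their lowest value in CD3e-/- sham. *Ccnb2* (cyclin B2) was the exception among the cyclins, with 19.98, 22.5, 27.1, 26 and 32.2 CPM and WT sham lowest.

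**Figure D3:**
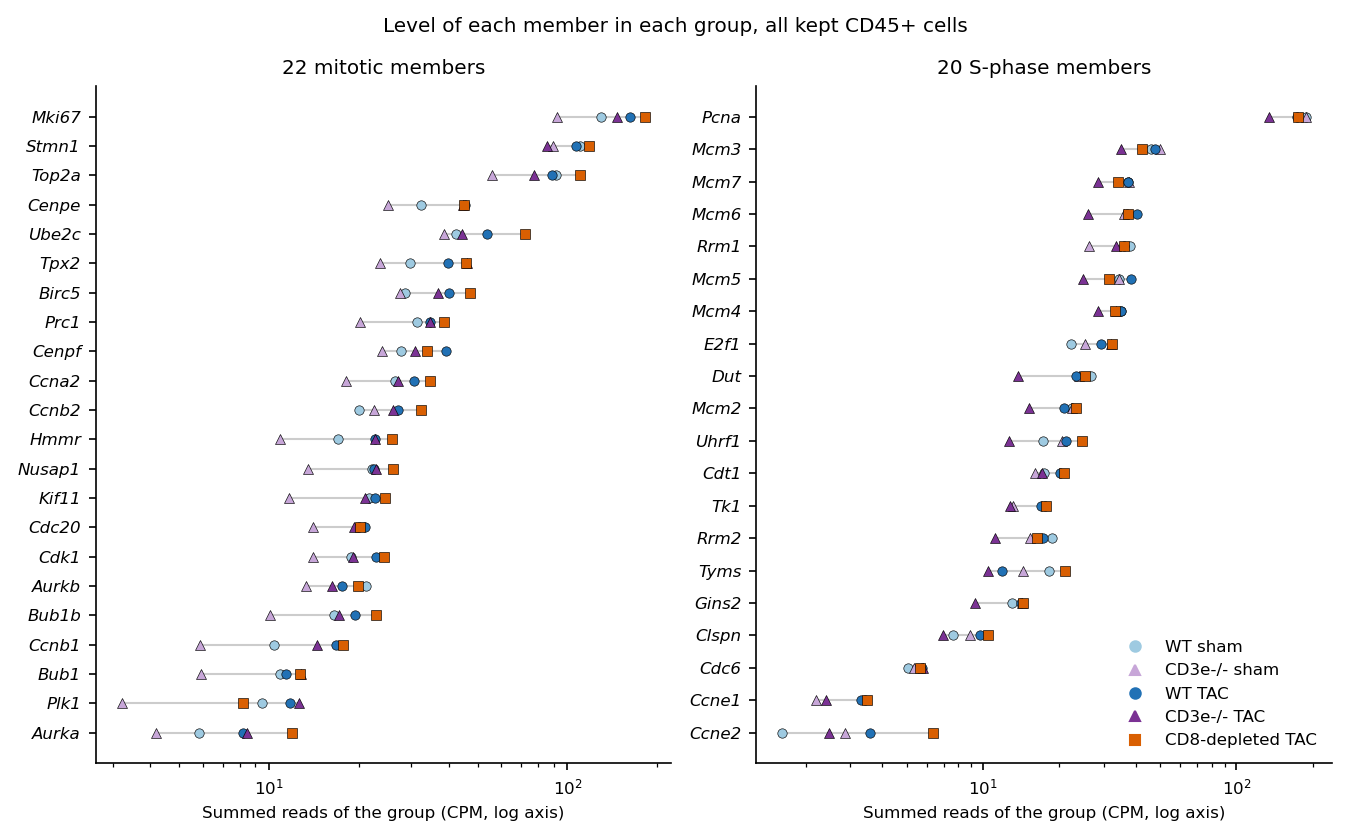
Level of each of the 22 mitotic (left) and 20 S-phase members (right) in each group, as summed reads in CPM on a log axis, with grey lines from the lowest to the highest group. CD3e-/- sham (light triangles) is lowest for most mitotic members, such as Mki67 at 92.1 CPM, and CD3e-/- TAC (dark triangles) is lowest for most S-phase members, such as Pcna at 135 CPM.

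S-phase members had another order. Their sum was 607, 589, 606, 463 and 611 CPM, so 4 groups were alike and CD3e-/- TAC was lower. *Pcna* was read at 188, 187, 173, 135 and 174 CPM, with CD3e-/- TAC below the other groups. Of the subunits of the MCM helicase, *Mcm2* was read at 22.4, 22.6, 21, 15.2 and 23.3 CPM. *Mcm3* was read at 46, 49.9, 47.7, 35.1 and 42.6 CPM, and *Mcm4* at 35.1, 33.5, 35, 28.5 and 33.2 CPM. These subunits were lowest in CD3e-/- TAC. *Mcm5* was read at 34.3, 34.3, 38.5, 24.9 and 31.6 CPM. *Mcm6* was read at 37.1, 35.9, 40.6, 25.9 and 37.2 CPM, and *Mcm7* at 37.3, 37.5, 37.5, 28.5 and 34.2 CPM. These subunits were lowest in CD3e-/- TAC as well, so that all 6 shared it. Of the enzymes of nucleotide supply, *Rrm2* was read at 18.8, 15.3, 17.3, 11.1 and 16.4 CPM. *Tyms* (thymidylate synthase) was read at 18.3, 14.4, 11.9, 10.4 and 21.1 CPM, and *Tk1* (thymidine kinase) at 17.5, 13.1, 16.9, 12.8 and 17.8 CPM. All were lowest in CD3e-/- TAC by summed reads, and *Tyms* was the member that set CD8-depleted TAC furthest from WT TAC. By the mean of the CPM of single cells *Rrm2* was instead higher in CD3e-/- TAC than in CD3e-/- sham. *Dut*, which clears dUTP, was read at 26.7, 24, 23.3, 13.7 and 25.3 CPM. *Uhrf1*, which passes DNA methylation on to the new strand, was read at 17.3, 20.6, 21.3, 12.7 and 24.5 CPM, and both were lowest in CD3e-/- TAC. *Rrm1*, the large subunit of ribonucleotide reductase, was read at 38.1, 26.2, 36, 33.4 and 35.9 CPM, lowest in CD3e-/- sham. *Gins2* of the replication helicase, *Clspn* (claspin, of the replication checkpoint) and the origin licensing factors *Cdc6* and *Cdt1* were read at up to 14.4, 10.5, 5.82 and 20.9 CPM. The cyclins E, which open S phase with CDK2, were near the floor, with *Ccne1* at 3.42, 2.20, 3.31, 2.41 and 3.48 CPM and *Ccne2* at 1.62, 2.85, 3.58, 2.48 and 6.35 CPM, and both were left out of ratios.

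The number of mitotic reads per S-phase read put these orders side by side, with 1.22, 0.923, 1.43, 1.70 and 1.60. It was higher in each TAC group than in either sham group. In the monocyte and macrophage gate it was 1.25, 0.631, 1.32, 1.90 and 1.37, so WT sham, WT TAC and CD8-depleted TAC lay close together and the sham and TAC groups of CD3e-/- mice lay below and above them.

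Groups were compared member by member as log2 ratios of levels, with 5 CPM added to both, over the 10979 genes with 5 CPM or more, which 40 of the 42 members passed. Between WT TAC and WT sham, none of the 22 mitotic and 18 S-phase members was 2-fold higher or lower, where 0.975% of all genes were higher and 2.31% lower. The median ratio was 0.22 for mitotic members, 19 of 22 being above 0, and 0.03 for S-phase members, 10 of 18 being above 0, against 0.01 for all genes. By means of single-cell CPM the mitotic median was 0.40 with 22 of 22 above 0, and without the cells above the 99th percentile of reads the S-phase median was -0.08, so no direction was read for S-phase members. The highest mitotic ratios were those of *Ccnb1* (0.50), *Cenpe* (0.44) and *Birc5* (0.43), and the lowest those of *Aurkb* (-0.21), *Stmn1* (-0.05) and *Top2a* (-0.04). Of the S-phase members *E2f1* (0.33), *Uhrf1* (0.24) and *Clspn* (0.22) stood highest and *Tyms* (-0.46), *Dut* (-0.16) and *Pcna* (-0.12) lowest.

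Between CD3e-/- TAC and CD3e-/- sham, 1 of 22 mitotic members was 2-fold higher, where 1.79% of all genes were, and no member was 2-fold lower, where 1.86% were. This was *Plk1* at 1.10, followed by *Tpx2* at 0.84 and *Ccnb1* at 0.84, while *Stmn1* (-0.06), *Ccnb2* (0.17) and *Ube2c* (0.18) were lowest. With 10 CPM added no member passed 2-fold, and by means of single-cell CPM 3 did. The median was 0.55 for mitotic members, with 21 of 22 above 0, and -0.34 for S-phase members, with 4 of 18 above 0, against 0.01 for all genes. By means of single-cell CPM the S-phase median was -0.10 with 7 of 18 above 0. *Rrm1* (0.30), *E2f1* (0.29) and *Cdt1* (0.07) were the highest S-phase members, and *Dut* (-0.63), *Uhrf1* (-0.53) and *Pcna* (-0.46) the lowest. The medians of the 2 sets stood on either side of 0 in both.

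Between CD3e-/- sham and WT sham no member was 2-fold higher or lower, where 0.146% and 0.556% of all genes were. Mitotic members had a median of -0.45 with 1 of 22 above 0, which was *Ccnb2* (0.14), followed by *Birc5* (-0.04) and *Ube2c* (-0.12), and the lowest were *Plk1* (-0.82), *Kif11* (-0.68) and *Top2a* (-0.67). S-phase members had a median of -0.00, or 0.08 by means of single-cell CPM, with 8 of 18 above 0, from *Uhrf1* (0.20), *E2f1* (0.15) and *Clspn* (0.14) to *Tyms* (-0.26), *Tk1* (-0.31) and *Rrm1* (-0.47). The median of all genes was -0.03. CD3e-/- sham enters this comparison and the one before, so its low mitotic level enters both.

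Between CD3e-/- TAC and WT TAC no member was 2-fold apart either, where 0.492% of all genes were higher and 0.401% lower. The mitotic median was -0.10 with 6 of 22 above 0, and it was 0.01 without the cells above the 99th percentile of reads, so no direction was read. *Tpx2* (0.19), *Bub1* (0.12) and *Plk1* (0.08) were highest, and *Stmn1* (-0.30), *Cenpf* (-0.30) and *Ube2c* (-0.26) lowest. The S-phase median was -0.35, or -0.14 by means of single-cell CPM and -0.19 without the cells above the 99th percentile, with 2 of 18 above 0, which were *E2f1* (0.11) and *Cdc6* (0.01), followed by *Rrm1* (-0.09), and *Dut* (-0.60), *Uhrf1* (-0.57) and *Mcm6* (-0.56) were lowest. The shares of cells with S-phase members in these groups, 5.67% and 5.30%, had intervals that overlapped.

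Between CD8-depleted TAC and WT TAC, again no member was 2-fold apart, where 0.419% of all genes were higher and 0.0911% lower. The mitotic median was 0.15 with 18 of 22 above 0 and 0.07 by means of single-cell CPM, and the members ran from *Ube2c* (0.39), *Aurka* (0.37) and *Top2a* (0.30) to *Cdc20* (-0.04), *Cenpf* (-0.19) and *Plk1* (-0.35). The S-phase median was 0.02 with 10 of 18 above 0 and -0.04 by means of single-cell CPM, with *Tyms* (0.62), *Uhrf1* (0.17) and *Mcm2* (0.12) highest and *Mcm7* (-0.12), *Mcm3* (-0.15) and *Mcm5* (-0.25) lowest. In both comparisons with WT TAC the median of all genes was within 0.03 of 0.

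Cells were then gated on the reads of single cells, which set classes without the use of any member. Monocytes and macrophages were cells with *Csf1r*, the receptor of the macrophage growth factor, and *Lyz2*, lysozyme, at 200 and 1000 CPM or more, and were parted in order into Ly6c2-high cells (500 CPM or more), Lyve1-positive cells (100 CPM or more), Ccr2-positive cells (500 CPM or more) and Ccr2-low cells. *Ly6c2* and *Ccr2* mark monocytes that enter from the blood, and *Lyve1* marks resident macrophages. Cells with 100 CPM or more of *Xcr1* formed the cDC1 gate and cells with 200 CPM or more of *Cd209a* the cDC2 gate (conventional dendritic cells of type 1 and type 2), and cells with 500 CPM or more of *Cd79a* the B cell gate. Of markers that the gates did not use, *Plac8* of monocytes had a mean of 3655 CPM in Ly6c2-high cells and 14.0 CPM in Lyve1-positive cells. *Folr2* of resident macrophages had 6.49 and 852 CPM. *Clec9a* of cDC1 had 326 CPM in the cDC1 gate and 3.99 CPM in the cDC2 gate, and *Ms4a1* of B cells 1723 CPM in the B cell gate. In the cDC2 gate *Clec10a* (300 CPM) and *Kmo* (115 CPM) were highest of all gates. *H2-DMb2* (297 CPM) was higher in the B cell gate (942 CPM) and *Flt3* (122 CPM) in the cDC1 gate (336 CPM). Monocyte and macrophage markers summed to 4506 CPM in the cDC2 gate and 18016 CPM in Ccr2-positive cells. The cDC2 markers summed to 2704 CPM in the cDC2 gate. Whether monocytes or macrophages with *Cd209a* entered this gate was not tested. In all, 780 of 5263 cells met no gate and 59 met a mixed one with both *Cd79a* and *Csf1r*.

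None of the 512 thinned Ly6c2-high cells was a cell with mitotic members, which allows a share of up to 0.586% (that of 3 cells), and none was a cell with S-phase members. Single members were still read in them, such as *Pcna* in 57.6% and *Mki67* in 14 of the 512. They were read deeply, with a median of 123260 reads. Their share of kept cells was 2.30%, 4.07%, 9.66%, 18.1% and 15.9%, so these cells, none of which met a call, were a larger part of the TAC groups. Ccr2-positive cells with mitotic members were 82 of 1355 (6.05%, 4.84 to 7.46%), Ccr2-low cells 80 of 1096 (7.30%, 5.83 to 9.0%) and Lyve1-positive cells 16 of 190 (8.42%, 4.89 to 13.3%). The intervals of these 3 gates overlapped, and none of them reached the interval of Ly6c2-high cells. The summed mitotic level was 43.2 CPM in Ly6c2-high cells, 690 CPM in Ccr2-positive, 907 CPM in Ccr2-low and 1452 CPM in Lyve1-positive cells, and the summed S-phase level 302, 566, 533 and 538 CPM, so Ly6c2-high cells were not empty of S-phase reads.

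By group, Ccr2-low cells with mitotic members were 3.72%, 5.20%, 9.21%, 7.02% and 10.8%, all TAC groups being above both sham groups with intervals that overlapped. Their summed mitotic level was 698, 616, 991, 671 and 1499 CPM, where CD3e-/- TAC was below WT sham, so no order was read between these groups. Ccr2-positive cells with mitotic members were 3.73%, 4.0%, 6.0%, 10% and 4.5%, with CD3e-/- TAC highest at 28 of 280 cells (6.75 to 14.1%) and overlapping with WT TAC at 31 of 517 (4.11 to 8.40%). The summed mitotic level of Ccr2-positive cells, 393, 263, 687, 1163 and 527 CPM, put the TAC groups in the same order. In Lyve1-positive cells the counts were 4 of 71, 0 of 28, 4 of 48, 3 of 15 and 5 of 28, too few for an order. In the whole gate the shares were 3.82%, 3.90%, 6.18%, 6.85% and 6.17%.

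The cDC1 gate had the highest share. In the cDC1 gate 29 of 154 cells had mitotic members (18.8%, 13 to 25.9%) and 17.5% had S-phase members, and in the cDC2 gate 37 of 406 (9.11%, 6.5 to 12.3%) and 10.1%, a share that was not set apart from those of Lyve1-positive cells (8.42%) or ungated cells (8.55%). By summed mitotic level Lyve1-positive cells (1452 CPM) and cells of the cDC1 gate (1429 CPM) were alike, and ungated cells (1242 CPM) lay above the cDC2 gate (910.4 CPM). The interval of the cDC1 gate overlapped at its lower end with that of Lyve1-positive cells. It lay above those of the cDC2, Ccr2-positive and Ccr2-low gates and of the B cell gate, where 6 of 323 cells had mitotic members (1.86%, 0.685 to 4.0%) and 0.929% S-phase members. Cells of the cDC1 gate were also the most deeply read, with a median of 202381 reads against 145771 in the cDC2 gate. Each was thinned to the same number, but after the floor on low counts, whose part in these shares was not tested. In the cDC2 gate the counts by group were 7 of 94, 5 of 83, 15 of 135, 0 of 39 and 10 of 55. CD3e-/- TAC thus had none, which allows up to 7.69% (that of 3 cells), beside 11.1% in WT TAC and 18.2% in CD8-depleted TAC (9.08 to 30.9%), and its summed mitotic level was 53.4 CPM beside 1017 and 1785 CPM. Cells with S-phase members were 3 of 39 in the cDC2 gate of CD3e-/- TAC, where the summed S-phase level was 489 CPM. Markers of T cells summed to 1000 CPM or more in 4 of the 37 cells with mitotic members of the cDC2 gate, and among its other cells in 5 of 87, 0 of 78, 10 of 120, 0 of 39 and 4 of 45 by group, and their part in the difference between groups was not tested. In the cDC1 gate the counts were 7 of 31, 7 of 27, 8 of 57, 4 of 19 and 3 of 20, with overlapping intervals.

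**Figure D4:**
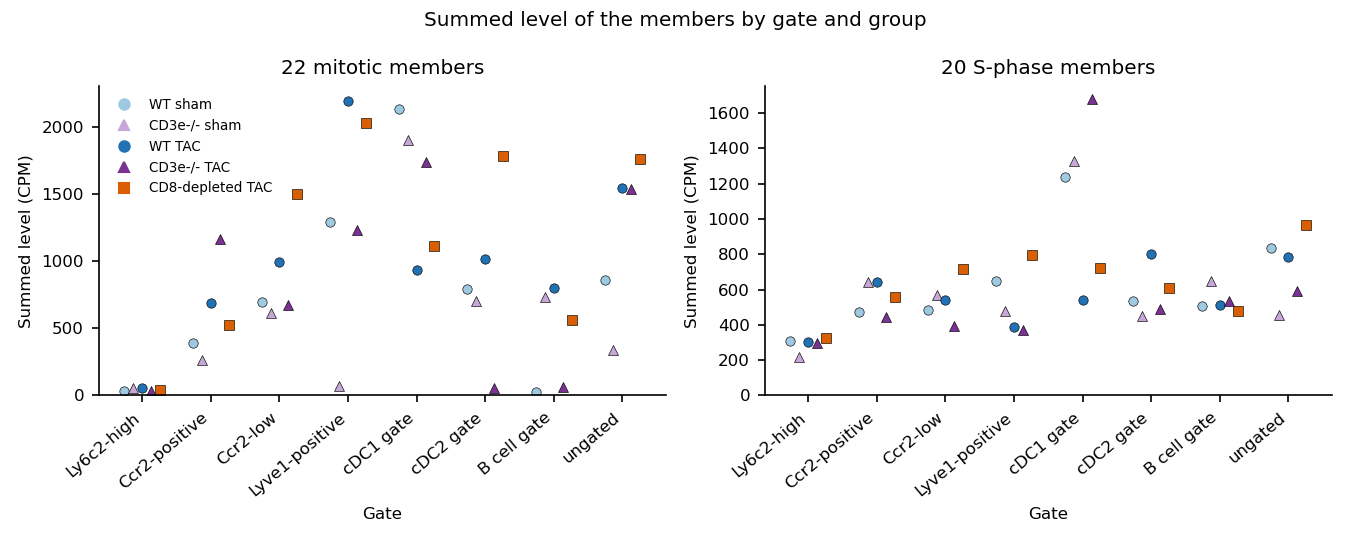
Summed level of the mitotic (left) and S-phase members (right) in CPM by gate (x axis) and group (symbols). Mitotic levels are low in the Ly6c2-high gate (43.2 CPM over all groups) and in the cDC2 gate of CD3e-/- TAC (53.4 CPM), and CD3e-/- TAC is highest in the Ccr2-positive gate at 1163 CPM.

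Ratios within the monocyte and macrophage gate had 10500 genes past the filter, with all 22 mitotic members and 17 S-phase members, *Cdc6* and both cyclins E being below it. The summed mitotic level was 616, 359, 732, 742 and 763 CPM, and 7, 6, 19, 10 and 11 cells held 50% of it. Between CD3e-/- TAC and CD3e-/- sham 8 of 22 mitotic members were 2-fold higher, where 1.71% of all genes were, and no S-phase member was 2-fold lower, where 1.10% of all genes were. They were *Tpx2* (1.31), *Cdc20* (1.30), *Hmmr* (1.29), *Ccna2* (1.24), *Ccnb2* (1.19), *Plk1* (1.18), *Mki67* (1.02) and *Ube2c* (1.02), and the median of the 22 was 0.94 with all above 0, beside 0.04 for all genes. *Stmn1* (0.17), *Aurkb* (0.50) and *Kif11* (0.51) were lowest. The levels behind them were 22.8, 5.23, 17, 20.1 and 17.6 CPM for *Cdc20* and 23.5, 15.4, 30.7, 45.5 and 32.2 CPM for *Tpx2*, with CD3e-/- sham lowest in both. The summed mitotic levels of CD3e-/- sham and CD3e-/- TAC were uneven within the gate. They were 72.9 and 1234 CPM in Lyve1-positive, 263 and 1163 CPM in Ccr2-positive, 616 and 671 CPM in Ccr2-low, and 59.0 and 34.6 CPM in Ly6c2-high cells. The number past 2-fold was 2 with 10 CPM added, 16 with 1 CPM added, and 10 without the cell with the most mitotic reads of each group, an alternative added after the data were seen, and the median stayed above 0 in each. S-phase members had a median of -0.53, or -0.26 by means of single-cell CPM, with 5 of 17 above 0, from *Rrm1* (0.23), *Tk1* (0.13) and *Clspn* (0.12) to *Mcm3* (-0.89), *Uhrf1* (-0.90) and *Mcm6* (-0.92).

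Between CD3e-/- sham and WT sham in the gate, *Cdc20* (-1.44) and *Plk1* (-1.02) were 2-fold lower, where 0.457% of all genes were, and no member was 2-fold higher, where 0.352% were. *Hmmr* (-0.92) came next, and *Birc5* (-0.06), *Kif11* (-0.29) and *Aurkb* (-0.33) were nearest to 0. The mitotic median was -0.65 with none of 22 above 0. Without the cell with the most mitotic reads of each group no member was 2-fold lower, the median was -0.57, and the summed levels were 535 CPM in WT sham and 321 CPM in CD3e-/- sham, so the count of 2 rested on a single cell per group and the direction did not. The gap was uneven within the gate. WT sham and CD3e-/- sham had 1292.5 and 72.9 CPM in Lyve1-positive cells, on 4 and 0 called cells. They had 393 and 263 CPM in Ccr2-positive, 698 and 616 CPM in Ccr2-low, and 32.1 and 59.0 CPM in Ly6c2-high cells. S-phase members had a median of 0.19, or 0.13 by means of single-cell CPM, with 13 of 17 above 0, from *Rrm2* (0.84), *Uhrf1* (0.57) and *Mcm5* (0.49) to *Tyms* (-0.02), *Tk1* (-0.24) and *Rrm1* (-0.35). The shares of cells with mitotic members of these 2 groups in the gate, 3.82% and 3.90%, did not differ in this way. The median level per called cell was 11852 CPM in WT sham, on 19 cells, and 5766 CPM in CD3e-/- sham, on 16 cells.

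Between WT TAC and WT sham in the gate no member was 2-fold apart, where 1.19% of all genes were higher and 0.810% lower. The mitotic median was 0.20 with 19 of 22 above 0, from *Cdk1* (0.51), *Kif11* (0.47) and *Birc5* (0.46) to *Bub1b* (-0.01), *Plk1* (-0.08) and *Cdc20* (-0.34), and the S-phase median 0.23 with 14 of 17 above 0, from *Rrm2* (0.93), *Cdt1* (0.67) and *Clspn* (0.49) to *Gins2* (-0.01), *Pcna* (-0.08) and *Mcm7* (-0.14). The S-phase median was 0.07 by means of single-cell CPM and 0.05 without the cells above the 99th percentile. It was above 0 in WT and below 0 in CD3e-/- mice, a difference that could not be tested with 1 sample per group.

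Between CD3e-/- TAC and WT TAC in the gate no member was 2-fold apart, where 0.343% of all genes were higher and 0.171% lower. The mitotic median was 0.08 with 14 of 22 above 0, from *Tpx2* (0.50), *Ccnb2* (0.26) and *Cenpe* (0.25) to *Kif11* (-0.26), *Cenpf* (-0.31) and *Stmn1* (-0.39). The S-phase median was -0.41 with none of 17 above 0, or -0.10 with 4 above 0 by means of single-cell CPM, from *E2f1* (-0.02), *Rrm1* (-0.12) and *Mcm4* (-0.23) to *Uhrf1* (-0.79), *Mcm6* (-0.93) and *Rrm2* (-0.93). Between CD8-depleted TAC and WT TAC in the gate no member was 2-fold apart, where 0.162% and 0.114% of all genes were. The mitotic median was 0.05, from *Aurka* (0.32), *Ccnb2* (0.25) and *Stmn1* (0.24) to *Hmmr* (-0.25), *Cenpf* (-0.43) and *Plk1* (-0.52), and it was -0.04 by means of single-cell CPM. The S-phase median was 0.00, or 0.14 without the cells above the 99th percentile, from *Tyms* (0.53), *Clspn* (0.21) and *Dut* (0.18) to *Mcm6* (-0.13), *Mcm5* (-0.15) and *Rrm2* (-0.36).

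**Figure D5:**
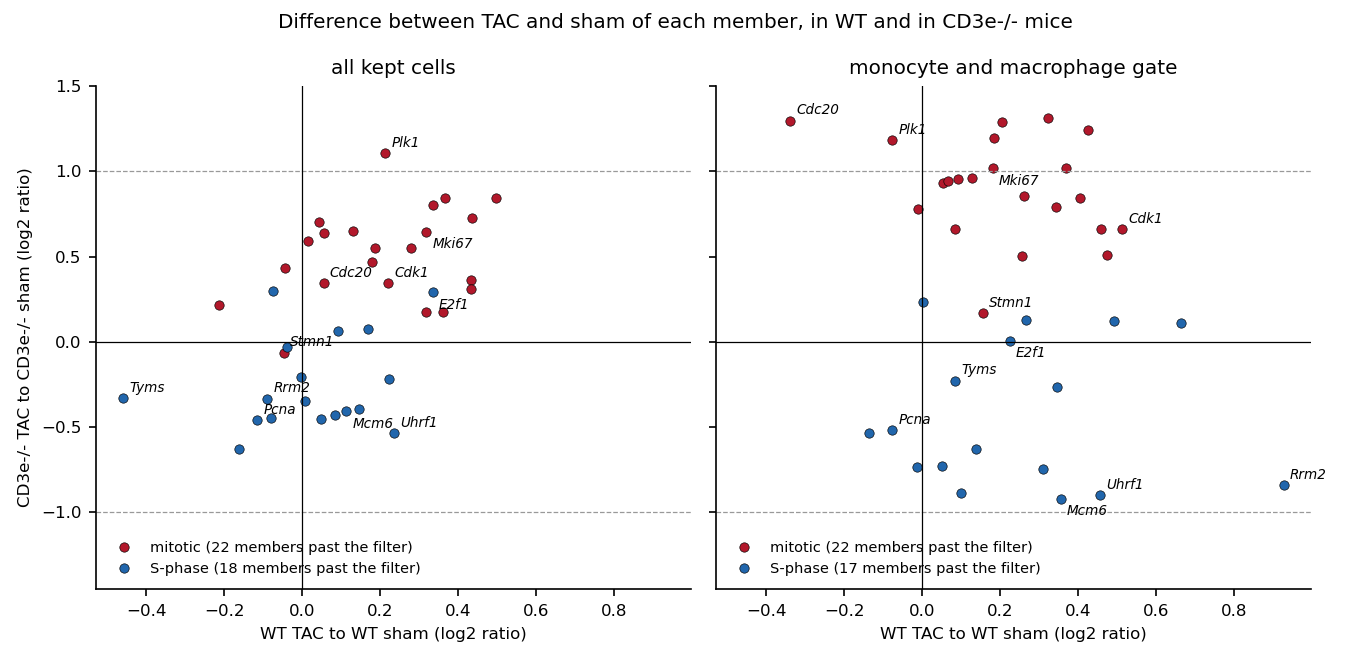
Log2 ratio of TAC to sham of each member in WT (x axis) and in CD3e-/- mice (y axis), for all kept cells (left) and the monocyte and macrophage gate (right), with mitotic members in red, S-phase members in blue and dashed lines at 2-fold. In the gate all 22 mitotic members lie above 0 on the y axis, 8 of them past 2-fold, and 12 of 17 S-phase members lie below 0.

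*E2f1* behaved unlike the rest of its set. It was read in 22, 22.4, 33.6, 41.6 and 36.8% of the thinned cells of the 5 groups, and the intervals of the sham groups (19.3 to 24.9% and 19.4 to 25.7%) lay below those of WT TAC (31.2 to 36.1%), CD3e-/- TAC (38.2 to 45.0%) and CD8-depleted TAC (33.5 to 40.2%). Its level was 22.2, 25.2, 29.3, 32 and 32.2 CPM, lowest in the sham groups as well. *E2f1* reads were not bound to cells with mitotic members, where it was read in 32.1% beside 31.7% of the others. They were highest in Ly6c2-high cells, with 45.7 CPM and a read in 60.9% of cells, beside 40.4 CPM and 35.3% in Lyve1-positive cells, 28.4 CPM and 29.7% in Ccr2-low cells and 8.83 CPM and 12.7% in the B cell gate, and Ly6c2-high cells were a larger part of the TAC groups. Within Ccr2-low cells *E2f1* was read in 20.2%, 24.9%, 32.1%, 37.4% and 35.4% at 22.6, 26.4, 29.0, 26.9 and 36.6 CPM, with the TAC groups above the sham groups in share. In level CD3e-/- TAC was nearly the same as CD3e-/- sham, and the other TAC groups were above both sham groups. Other gates went otherwise, as within Lyve1-positive cells it was read in 43.7%, 32.1%, 29.2%, 20% and 35.7% at 50.1, 51.9, 41, 8.92 and 44.8 CPM, with the sham groups highest in level. Within Ly6c2-high cells it was read in 43.5%, 35.3%, 58.1%, 66% and 67.4% at 57.7, 26.5, 40.9, 48.7 and 49.6 CPM, where share and level went opposite ways in WT mice. Within Ccr2-positive cells it was read in 28%, 29.1%, 38.1%, 43.9% and 41.4% at 24.1, 37.6, 34.6, 31.0 and 30.5 CPM, where in CD3e-/- mice share and level went opposite ways, so no order was read there.

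*Cdt1*, which licenses origins and is destroyed once they fire, also stood apart, and it and the values of *E2f1* by gate and group were chosen after they had been seen. It was read in 34.4% of the cells of the B cell gate at 81.1 CPM and in 7.37 to 18.2% of the cells of the other gates except the mixed one, at 8.39 to 21 CPM, although the B cell gate had the fewest cells with S-phase members beside Ly6c2-high cells. The high value was found in the B cell gate of each group, from 60.2 CPM in WT TAC to 127 CPM in CD3e-/- TAC.

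Genes that are no members were set beside them in the monocyte and macrophage gate, as the mean CPM of the 178 cells with mitotic members against the other 2975 thinned cells, with 5 CPM added. Of 54 other division genes past the filter, 52 were 2-fold higher, with a median log2 ratio of 3.69, where 430 of 10461 genes outside the members were. *Kif20a* (a motor of the dividing midzone, 4.95), *Nuf2* (of the kinetochore, 4.79), *Cdca8* (of the passenger complex, 4.51) and *Cks1b* (which binds CDK1, 4.51) were among them, as were *Ckap2l* (5.24), *Cdca3* (4.91) and *Kif23* (4.63). *Pttg1* (securin, -0.21) and *Chaf1b* (0.97) were not. The filter was a level over the whole gate, called cells included. Genes of this list near 0 in the other cells, such as *Kif2c* (79.1 against 0.533 CPM) and *Melk* (86.3 against 0.612 CPM), passed it only through the called cells. Their 2-fold calls were thus fixed by the filter, and the count of 52 is no independent support of the mitotic call. Outside this list *Aspm* (5.23), *Hist1h2ap* (4.84), *Pimreg* (4.83), *Knstrn* (4.74), *Knl1* (4.60) and *Hist1h2ao* (4.51) had the highest ratios, next to *Igkc* (7.66) and *Igha* (6.42), of which 99.6% each came from 1 cell.

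Of 27 genes of cycle entry and its brakes, 5 were 2-fold higher in these cells and 4 lower, where 430 and 345 of the 10461 genes outside the members were. The higher ones were *Foxm1* (4.05), which drives mitotic genes, *Cdkn2c* (3.43) and *Cdkn2d* (1.06), which inhibit the kinases CDK4 and CDK6, *E2f8* (2.76), a repressor of the E2F family, and *Rbl1* (1.60), a relative of the retinoblastoma protein. *Foxm1*, at 93.4 against 0.921 CPM, also passed the filter only through the called cells, so its call was fixed by it. The 4 that were 2-fold lower were *Btg1* (-1.38), *Btg2* (-1.47) and *Gadd45b* (-1.05), which restrain growth, and *Ccnd2* (-1.18), cyclin D2. *Plac8* (-6.05), *Ly6c2* (-5.12) and *Lyz2* (-1.27) were lower and *C1qa* of macrophages (0.34) was not 2-fold apart, and as *Lyz2* and *Ly6c2* also set the gates, the part of the gates in these values was not tested.

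Across groups in all kept cells, the list of 55 other division genes past the filter had no gene 2-fold apart in any of the 5 comparisons, with medians of 0.02 for WT TAC to WT sham, 0.13 for CD3e-/- TAC to CD3e-/- sham, -0.21 for CD3e-/- sham to WT sham, -0.12 for CD3e-/- TAC to WT TAC and 0.07 for CD8-depleted TAC to WT TAC. In the gate 3 of 54, namely *Kif20b* (1.33), *Ckap2* (1.21) and *Ckap2l* (1.08), were 2-fold higher in CD3e-/- TAC than in CD3e-/- sham, where 1.71% of all genes were. A further 4 of 54, namely *Kif20b* (-1.51), *Ect2* (-1.14), *Ckap2* (-1.10) and *Kif23* (-1.05), were 2-fold lower in CD3e-/- sham than in WT sham, where 0.457% of all genes were, and CD3e-/- sham is a term of both comparisons. Of cycle entry and its brakes, *Gadd45b* was 2-fold lower in TAC than in sham in all kept cells, with log2 ratios of -1.07 in WT and -1.17 in CD3e-/- mice, from 308 and 300.2 CPM in sham to 144 and 131 CPM in TAC. In the gate *Gadd45b* (-1.10) and *Ccnd2* (-1.26) were 2-fold lower in CD3e-/- TAC than in CD3e-/- sham.

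Cells with mitotic members that met no gate were 55 of 643 ungated cells (8.55%, 6.51 to 11.0%), with 4.42%, 1.94%, 11.4%, 14.7% and 12.8% by group. The interval of CD3e-/- TAC (7.56 to 24.7%) lay above that of CD3e-/- sham (0.236 to 6.84%), on 11 of 75 and 2 of 103 cells. The make-up of the ungated cells moved with these groups, as markers of type 2 innate lymphoid cells summed to 1000 CPM or more in 50 of 101 ungated cells without the call in CD3e-/- sham and 4 of 64 in CD3e-/- TAC, and those of mast cells in 26 of 101 and 2 of 64, and their part in the difference was not tested. All 3 cells with the call and this level of fibroblast markers were among the 11 of CD3e-/- TAC. Of the 55 cells, 20 had *Csf1r* past its limit and *Lyz2* below, 10 the reverse, and 25 had both below. Markers of T cells summed to 1000 CPM or more in 9 of the 55, none of which was among the 13 of the CD3e-/- groups, markers of NK cells in 5, of type 2 innate lymphoid cells in 3 and of fibroblasts in 3. Of the 588 other ungated cells 15.3% reached this level of T cell markers beside 16.4% of the 55, 5.95% of NK cell markers beside 9.09%, 29.9% of type 2 innate lymphoid cell markers beside 5.45% and 5.61% of fibroblast markers beside 5.45%. In the monocyte and macrophage gate none of the 178 cells with mitotic members reached this level of T or NK cell markers, 2 did of mast cells and 1 of B cells.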

How the data were processed

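The deposited counts are reads per gene and cell barcode, whole numbers that the authors corrected for sequencing errors by distribution (DBEC), and the number of original molecules behind them is not kept. The submitters' processing notes name cutadapt 2.10, Bowtie2 2.4.2 and the build GRCm38. The authors assigned hashtags and marked 40 doublets, which were left out, and 8 columns without a hashtag were not used. No barcode was repeated. Genes read in 5 cells and cells with 500 genes and a mitochondrial share of at most 0.4 were kept, which left 5263 of 5315 cells. Levels were summed reads in CPM with exact Poisson intervals of 95%. For shares, cells were thinned at random to 34832 reads, the 10th percentile, and 527 shallower cells were left out, and Clopper-Pearson intervals of 95% were given. A cell was called with 5 of 21 mitotic members (without Stmn1) or 8 of 20 S-phase members. Ratios were taken with 5 CPM added over genes with 5 CPM or more and called at 2-fold. The ratios and the thinning were tested on simulated data with independent reads. The gates, the calls of cells and the heaping of reads in few cells were not part of that simulation. Named genes were the leading members in every group, the 3 highest and 3 lowest ratios per list, other listed genes past 2-fold and the 15 leading non-members of cells with mitotic members. Alternatives changed the number of members needed, the thinning, the gate limits, the cell filter, the added CPM, the gene filter, the scaling and the level per group, or left out cells above the 99th percentile of reads, and the alternative without the cell with the most mitotic reads and the S-phase medians of the gate under other settings were added after the data were seen. Members, lists and limits were chosen with earlier results of these data known. The work was done in Python 3.11.15 with pandas 2.3.3, numpy 2.4.6 and scipy 1.17.1, and figures were drawn with matplotlib 3.10.9.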

Additional observations from a re-analysis of the deposited data

How the results depend on the processing

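Each group was 1 sample in 1 library, so differences between hearts, hashtags and treatments cannot be told apart and no replicate could be left out. No paired analysis was possible because no group had a second sample. No value changed its direction past a call under any alternative, but ratios short of 2-fold did change sign. By means of single-cell CPM the log2 ratio of *Rrm2* between CD3e-/- TAC and CD3e-/- sham was 0.20. That of *Dut* between CD3e-/- sham and WT sham was 0.46. By summed reads both were below 0. The cause of these shifts and of those below was not tested. With 3 mitotic members needed, the mitotic share was 9.12% in WT TAC and 12.6% in the cDC2 gate, and with 8 it was 6.08% in WT TAC, 5.42% in CD3e-/- TAC and 4.65% in Ccr2-positive cells. With 6 S-phase members needed, the S-phase shares were 7.34%, 9.70%, 9.39%, 9.16% and 10.8%, and with 10 they were 3.33%, 4.16% and 4.46% in the first 3 groups. At 0.5 times the thinned reads the S-phase share was 3.70% in WT sham and in CD3e-/- TAC, and without thinning 9.16%, 9.25% and 9.73% in the TAC groups. With gate limits times 0.5, the mitotic share was 6.33% in ungated cells, and with limits times 2 it was 4.56% in the WT TAC monocyte and macrophage gate, 3.88% in Ccr2-positive, 0.623% in B cell and 11.5% in ungated cells. In CD3e-/- TAC against CD3e-/- sham the number of mitotic members 2-fold higher in all kept cells was 2 with 1 CPM added, 0 with 10 CPM added and 3 by means of single-cell CPM, and in the gate 16 with 1 CPM added and 2 with 10 CPM added. In CD3e-/- sham against WT sham the number 2-fold lower was 1 in all kept cells with 1 CPM added, and in the gate 6 with 1 CPM added, 1 with 10 CPM added, 1 by means of single-cell CPM and 0 without the cell with the most mitotic reads. By means of single-cell CPM the summed mitotic levels were 477, 346, 661, 637 and 706 CPM and the S-phase levels 489, 522, 493, 439 and 508 CPM. Without cells above the 99th percentile of reads the mitotic levels were 721, 535, 812, 815 and 965 CPM, and the S-phase levels were 596 CPM in WT sham, 556 CPM in WT TAC and 475 CPM in CD3e-/- TAC.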
